A study of Mus musculus with 6 samples.

Results

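Genes of the red blood cell lineage were followed in developing mouse molars, 9 in all: the adult beta-globins Hbb-bs and Hbb-bt, the adult alpha-globins Hba-a1 and Hba-a2, the heme synthesis enzyme Alas2, the membrane proteins Slc4a1 and Epb42, the alpha-globin chaperone Ahsp and the transcription factor Klf1. They were chosen by name, with earlier results of these data known, and 8 of the 9 had a row among the 23594 genes of the deposited table. Ahsp had none and was not analysed here. RNA came from the apical part of the furcation development region (FDR), the place where molar roots separate, collected by laser-capture microdissection from mandibular first molars of C57BL/6 mice 4.5 days after birth (PN4.5). The comparison set 3 control libraries against 3 Lhx6-/- libraries, each made from pooled tissue of 8 molars of 1 genotype. In the Lhx6-/- mice both copies of Lhx6, a LIM homeobox gene of dental mesenchyme, carried a knock-in of CreER that removes its function, whereas the controls are labelled wild type. The paper describes the mutants as littermates of controls and the libraries as 3 pairs, without saying which belong together. The number of animals or litters behind each pool is not given in the sources used here, so p-values measure the spread between these libraries.

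Mature red cells of mammals carry no nucleus and little RNA, and their youngest circulating form, the reticulocyte, still holds a large store of globin mRNA. In newborn mice reticulocytes are abundant in blood, and a tooth germ is supplied by capillaries. Hemoglobin joins alpha and beta chains to heme. Alas2 catalyses the first step of heme synthesis in erythroid cells, Slc4a1 (band 3) exchanges chloride for bicarbonate across the red cell membrane, Epb42 (protein 4.2) ties band 3 to the skeleton beneath, and Klf1 switches on many erythroid genes through CACCC boxes. In bulk tissue, fewer erythroid cells and less RNA per cell cannot be told apart.

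The 2 adult genes of each globin type are close copies, which bears on how their reads could be assigned. In the GENCODE vM21 transcripts the coding sequences of Hba-a1 and Hba-a2, 426 bases each, differed at 1 base, C381T, counted from the first coding base with the Hba-a1 base first. Those of Hbb-bs and Hbb-bt, 441 bases each, also differed at 1 base, C417T, with the Hbb-bs base first. Coding bases 361 to 401 of the alpha pair and 397 to 437 of the beta pair are shown with the differing base in capitals.
Hba-a1: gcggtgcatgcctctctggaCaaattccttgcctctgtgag
Hba-a2: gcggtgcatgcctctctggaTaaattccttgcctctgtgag
Hbb-bs: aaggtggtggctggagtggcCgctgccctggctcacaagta
Hbb-bt: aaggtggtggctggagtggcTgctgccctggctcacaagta
Of all windows of 75 bases, the read length, along each transcript, the share also found in its partner was 81% for Hba-a2, 64.3% for Hbb-bs, 62.2% for Hba-a1 and 56.6% for Hbb-bt. It was 0% for Alas2, Slc4a1, Epb42 and Klf1. How the authors' counting divided such reads is not given in the sources used here, so the split within a pair is uncertain, and so is any loss of such reads from both copies.

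The stretches just before the start sites are shown because Klf1, a member, acts through CACCC boxes. The 120 bases upstream of the RefSeq start (GRCm38.p6, strand of the gene) are given for the 4 globins and Alas2, with matches on either strand to 4 motifs in capitals: GATA (bound by Gata1 and its relatives), CACCC (by Klf1 and its relatives), CCAAT (the CAAT box) and TATAA (the TATA box). A capital run that spells the reverse complement of a motif is a match on the other strand. The positions are chr7:103827929-103828048 (minus strand) for Hbb-bs, chr7:103813924-103814043 (minus) for Hbb-bt, chr11:32283552-32283671 (plus) for Hba-a1, chr11:32296372-32296491 (plus) for Hba-a2 and chrX:150547297-150547416 (plus) for Alas2. GENCODE places some starts of these genes farther upstream.
Hbb-bs: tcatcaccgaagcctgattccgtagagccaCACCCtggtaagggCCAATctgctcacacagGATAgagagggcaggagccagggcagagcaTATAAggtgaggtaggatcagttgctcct
Hbb-bt: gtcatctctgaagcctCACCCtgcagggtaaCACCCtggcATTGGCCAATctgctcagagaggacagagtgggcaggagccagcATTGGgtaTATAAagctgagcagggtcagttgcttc
Hba-a1: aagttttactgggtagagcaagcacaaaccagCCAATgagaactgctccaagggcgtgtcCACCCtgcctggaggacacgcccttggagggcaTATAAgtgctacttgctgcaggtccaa
Hba-a2: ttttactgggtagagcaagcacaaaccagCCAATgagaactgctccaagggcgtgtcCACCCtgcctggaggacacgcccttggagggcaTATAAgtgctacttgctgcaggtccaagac
Alas2: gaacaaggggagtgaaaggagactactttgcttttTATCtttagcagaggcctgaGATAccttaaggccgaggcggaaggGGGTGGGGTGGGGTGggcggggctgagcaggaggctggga
Hba-a1 and Hba-a2 shared an identical run of 117 bases, whereas the longest run shared by Hbb-bs and Hbb-bt was 14 bases. Each globin stretch held CACCC, the CAAT box and the TATA box, in that order for the beta genes and with the CAAT box first for the alpha genes. That of Hbb-bs also held GATA, and that of Hbb-bt a second CACCC and 2 reverse CCAAT matches. The Alas2 stretch held GATA on each strand and 3 reverse CACCC matches, and neither CCAAT nor TATAA. The Klf1 stretch had CACCC, a reverse GATA and CCAAT, and the Epb42 stretch had no match. Among 32851 promoters of the same length, 31.7% held CACCC, 29.5% GATA, 21.3% CCAAT and 11.8% TATAA. These matches describe letters in a window and no binding.

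The libraries held 60132323 to 76157433 estimated counts each, and 20114 genes were tested with the quasi-likelihood method of edgeR, with p-values adjusted after Benjamini and Hochberg. The fold and p rule below, the study's own kind of threshold, asks for at least 1.5-fold and an unadjusted p under 0.05. Levels are given as CPM, counts per 1000000 counts after TMM scaling. Lhx6 measured 27.8, 18.2 and 21.9 CPM in controls 1 to 3 and 12.8, 9.81 and 10.5 CPM in Lhx6-/- libraries 1 to 3, which do not overlap (log2 fold change -1.04, SE 0.16, adjusted p = 0.021). The tissue was rich in enamel and dentin transcripts, among them Amelx, Ambn and Dspp. The 4 most abundant genes of any kind, Amelx, CT010467.1, Col1a1 and Ambn, made up 28.6% to 31.6% of all counts. Tissue of both sexes was collected, and its mix differed between libraries. The sum of 4 Y-linked genes was 17.4, 57.9 and 14.6 CPM in controls and 55.1, 92.1 and 88.5 CPM in Lhx6-/- libraries, and Xist was 792, 411 and 628 CPM in controls and 290, 0.228 and 0.0537 CPM in Lhx6-/- libraries. The part of this mix in the results below was not tested. Alas2 is the only measured member on the X chromosome. The labels give no batch or date.

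The summed red cell transcripts were a measurable part of the dissected tissue and were lower in every Lhx6-/- library than in every control. The 8 measured members together made up 0.324%, 0.376% and 0.298% of all counts in controls 1 to 3 and 0.239%, 0.168% and 0.225% in Lhx6-/- libraries 1 to 3. As summed level this was 3346 ± 372 CPM in controls and 2105 ± 432 CPM in Lhx6-/- (SD, n = 3), or 62.9% of the control level. The 4 adult globins supplied nearly all of it, at 3063, 3640 and 2926 CPM in controls and 2292, 1571 and 2196 CPM in Lhx6-/- libraries. With 3 libraries against 3, the smallest p an exact permutation test can give is 0.1, so no such test was used on the sums.

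**Figure D1:**
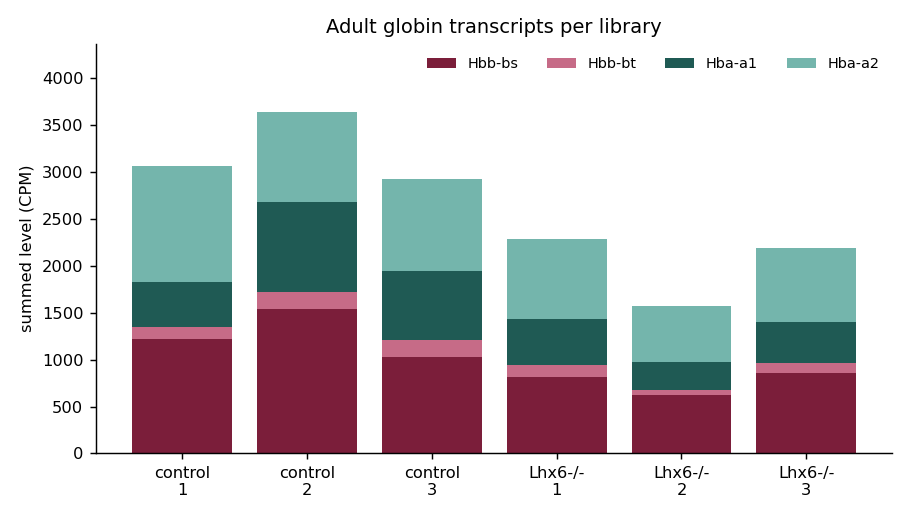
Level of the 4 adult globin genes in each library, in counts per 1000000 (CPM), stacked, for controls 1 to 3 and Lhx6-/- 1 to 3. The lowest control bar reaches 2926 CPM and the highest Lhx6-/- bar 2292 CPM, and Hbb-bs and Hba-a2 fill most of each bar.

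Of the adult beta genes, Hbb-bs (chr7, 103826534 to 103828096, minus strand, mm10) had the higher level as counted, with the split of shared reads uncertain. It measured 1225, 1540 and 1033 CPM in controls and 817, 622 and 856 CPM in Lhx6-/- libraries. The groups did not overlap, and Lhx6-/- 2 was the lowest library. The log2 fold change was -0.73 (SE 0.16, unadjusted p = 0.00165, adjusted p = 0.161), and -0.56, short of 1.5-fold, without control 2. Hbb-bt (chr7, 103812524 to 103813996, minus strand), the second adult beta gene, measured 125, 182 and 173 CPM in controls and 129, 52.7 and 105 CPM in Lhx6-/- libraries. Here control 1 lay below Lhx6-/- 1, and the log2 fold change of -0.74 had an SE of 0.39 (unadjusted p = 0.121, adjusted p = 0.662), and it was -0.45 without Lhx6-/- 2. With both beta genes summed into 1 row before the fit, the log2 fold change was -0.73 (SE 0.17, unadjusted p = 0.00193, adjusted p = 0.173).

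Both alpha genes lie on chromosome 11. Hba-a2 (32296489 to 32297298, plus strand) measured 1229, 958 and 985 CPM in controls and 857, 596 and 790 CPM in Lhx6-/- libraries, again without overlap. Its log2 fold change, -0.50 (SE 0.14, unadjusted p = 0.00555, adjusted p = 0.255), was the smallest of the 8 members and just short of 1.5-fold, a size it passed without Lhx6-/- 1 (-0.61). Hba-a1 (32283511 to 32284465, plus strand) measured 484, 960 and 736 CPM in controls and 489, 301 and 445 CPM in Lhx6-/- libraries. Control 1 lay among the Lhx6-/- values for Hba-a1, although control 1 had the highest Hba-a2 level of all libraries. The log2 fold change of Hba-a1 was -0.82 (SE 0.32, unadjusted p = 0.047, adjusted p = 0.499), and the fold and p rule was met with control 1 or Lhx6-/- 1 left out but not with any of the other 4 libraries left out. The summed alpha level varied less among controls than either copy did, at 1713, 1918 and 1720 CPM in controls and 1346, 897 and 1234 CPM in Lhx6-/- libraries. Its log2 fold change was -0.62 (SE 0.13, unadjusted p = 0.000784, adjusted p = 0.11).

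The balance between chains did not separate the genotypes. The ratio of alpha-globin to beta-globin CPM was 1.27, 1.11 and 1.43 in controls and 1.42, 1.33 and 1.28 in Lhx6-/- libraries, so the ranges overlapped. The split between copies varied more. Hba-a1 supplied 28.3%, 50.1% and 42.8% of alpha-globin CPM in controls and 36.4%, 33.5% and 36% in Lhx6-/- libraries, and Hbb-bt supplied 7.81% to 14.4% of beta-globin CPM over all 6 libraries. Control 1 and control 2 bounded the Hba-a1 range. Because most windows of these transcripts fit either copy, the split is the least certain of the globin values.

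Alas2 (chrX, 150547375 to 150570638, plus strand) followed the globins closely. It measured 43.0, 47.6 and 33.0 CPM in controls and 28.8, 18.7 and 27.3 CPM in Lhx6-/- libraries, with no overlap. The log2 fold change was -0.73 (SE 0.19, unadjusted p = 0.00505, adjusted p = 0.247), and -0.55, short of 1.5-fold, without Lhx6-/- 2. Relative to the adult globins of the same library, Alas2 kept a narrow range, 14, 13.1 and 11.3 CPM per 1000 CPM of globin in controls and 12.6, 11.9 and 12.4 in Lhx6-/- libraries.

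The membrane genes were less even. Slc4a1 (chr11, 102348824 to 102366203, minus strand) measured 130, 63.6 and 68.0 CPM in controls and 76.0, 17.5 and 74.9 CPM in Lhx6-/- libraries. Control 1 and Lhx6-/- 2 stood apart from the other 4 libraries, among which the Lhx6-/- values were the higher. The log2 fold change was -0.64 (SE 0.70, unadjusted p = 0.413, adjusted p = 0.868), and it was -0.23 without control 1 and -0.21 without Lhx6-/- 2. Epb42 (chr2, 121017891 to 121037072, minus strand) measured 6.31, 3.02 and 2.50 CPM in controls and 2.21, 0.94 and 3.69 CPM in Lhx6-/- libraries, from 70 to 393 counts. The groups overlapped, with Lhx6-/- 3 above controls 2 and 3. Its log2 fold change was -0.79 (SE 0.54, unadjusted p = 0.185, adjusted p = 0.724), and it was -0.27 without control 1, -0.41 without Lhx6-/- 2 and -1.33 without Lhx6-/- 3, the one leave-out in which it met the fold and p rule.

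Klf1 (chr8, 84901928 to 84905291, plus strand), the one transcription factor among the members, was as rare as Epb42. It measured 5.77, 3.26 and 3.70 CPM in controls and 2.08, 0.99 and 3.44 CPM in Lhx6-/- libraries, from 74 to 359 counts. Lhx6-/- 3 lay between controls 2 and 3, and the other Lhx6-/- libraries lay below all controls. The log2 fold change was -0.97 (SE 0.41, unadjusted p = 0.0431, adjusted p = 0.489). It ran from -0.62 without Lhx6-/- 2 to -1.47 without Lhx6-/- 3, and the fold and p rule was not met without control 1, control 3, Lhx6-/- 1 or Lhx6-/- 2.

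**Figure D2:**
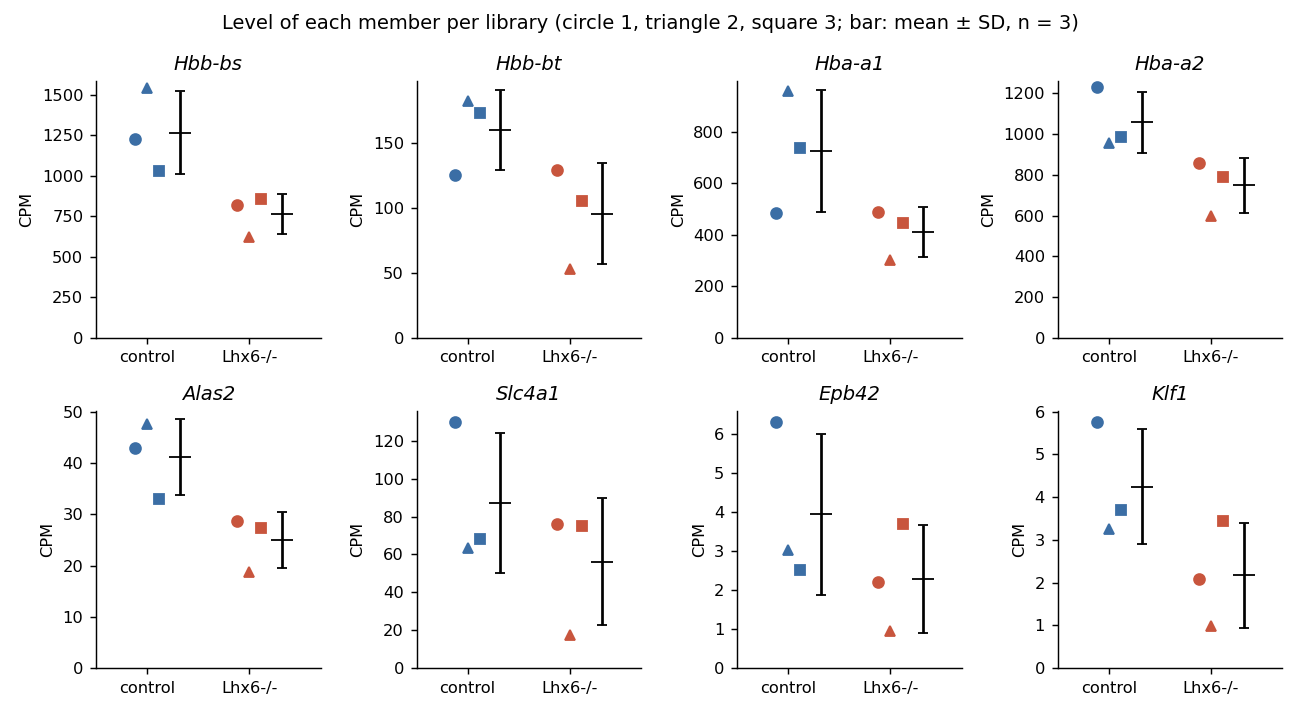
Level of each of the 8 measured members in counts per 1000000 (CPM, axes from 0), with control libraries in blue and Lhx6-/- libraries in red (circle, library 1; triangle, 2; square, 3) and the mean ± SD of each group (n = 3) beside the points. The groups are apart for Hbb-bs, Hba-a2 and Alas2, and the red triangle, Lhx6-/- 2, is the lowest point in every panel.

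All 8 members had a lower mean in Lhx6-/- libraries, at 51.2% (Klf1) to 70.7% (Hba-a2) of the control mean. Of these, 4 (Hbb-bs, Hba-a1, Alas2 and Klf1) met the fold and p rule, which 1.71% of all 20114 tested genes met in the lower direction. None reached an adjusted p under 0.05 in edgeR's quasi-likelihood test, which 0.403% of all tested genes reached in either direction, and 5 of the 8, all lower, had an unadjusted p under 0.05, as 5.07% of all tested genes had in that direction. DESeq2 gave 1.6% of the genes it adjusted an adjusted p under 0.05, and 3 members, namely Hbb-bs (adjusted p = 0.0457), Hba-a2 (adjusted p = 0.00524) and Alas2 (adjusted p = 0.001). In 3 members, Hbb-bs, Hba-a2 and Alas2, the values did not overlap between groups, against 7.68% of all tested genes that were lower without overlap. The members' median log2 fold change was -0.74, beside -0.00 over all tested genes. Lhx6-/- 2 was the lowest of the 6 libraries for 8 of 8 members, as it was for 15.4% of all tested genes. Without it, 1 member (Hbb-bs) met the fold and p rule and the members' median log2 fold change was -0.50, and without control 2 (Alas2 and Klf1) or control 3 (Alas2 and Hbb-bs), 2 members met it. Among all genes tested, 660 met the rule in either direction with all 6 libraries. Their number was 620 without Lhx6-/- 2, 714 without control 2 and 668 without control 3. Hba-a1 met the rule in 7 of 16 alternative fits and Klf1 in 13 of 17.

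Per kilobase of exon in GENCODE vM21, the levels spanned more than 3 orders of magnitude. In controls, Hbb-bs (1648 ± 334 CPM per kilobase) and Hba-a2 (1585 ± 224) led and did not differ beyond their spread (SD, n = 3). Hba-a1 (895 ± 294) and Hbb-bt (228 ± 43.7) followed. Slc4a1 (17.8 ± 7.56) and Alas2 (17.1 ± 3.12) again lay within their spread, and Klf1 (2.77 ± 0.874) and Epb42 (0.728 ± 0.381) were lowest. In Lhx6-/- libraries Hba-a2 (1121 ± 203) and Hbb-bs (996 ± 163) led, Hba-a1 (507 ± 121) and Hbb-bt (136 ± 55.4) came next, and Slc4a1 (11.5 ± 6.85), Alas2 (10.4 ± 2.25), Klf1 (1.42 ± 0.801) and Epb42 (0.421 ± 0.254) closed the order.

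Across the 6 libraries the members followed 2 shapes. To compare shapes, log2 CPM (prior count 2) was centred on each gene's own mean over the 6 libraries, and the root mean square difference between 2 genes was taken, where 0 means the same shape. Hbb-bs and Alas2 were the closest pair, at 0.0859. Within the globins and Alas2 the difference was at most 0.427, and among Slc4a1, Epb42 and Klf1 at most 0.353. Between the sets it was 0.492 (Alas2 and Klf1) to 0.783 (Hba-a1 and Slc4a1). The sets were named after their values were seen and are a description. In the first set, control 2 was highest for Hbb-bs, Hbb-bt, Hba-a1 and Alas2 and control 1 for Hba-a2, whereas control 1 was highest for all of Slc4a1, Epb42 and Klf1.

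**Figure D3:**
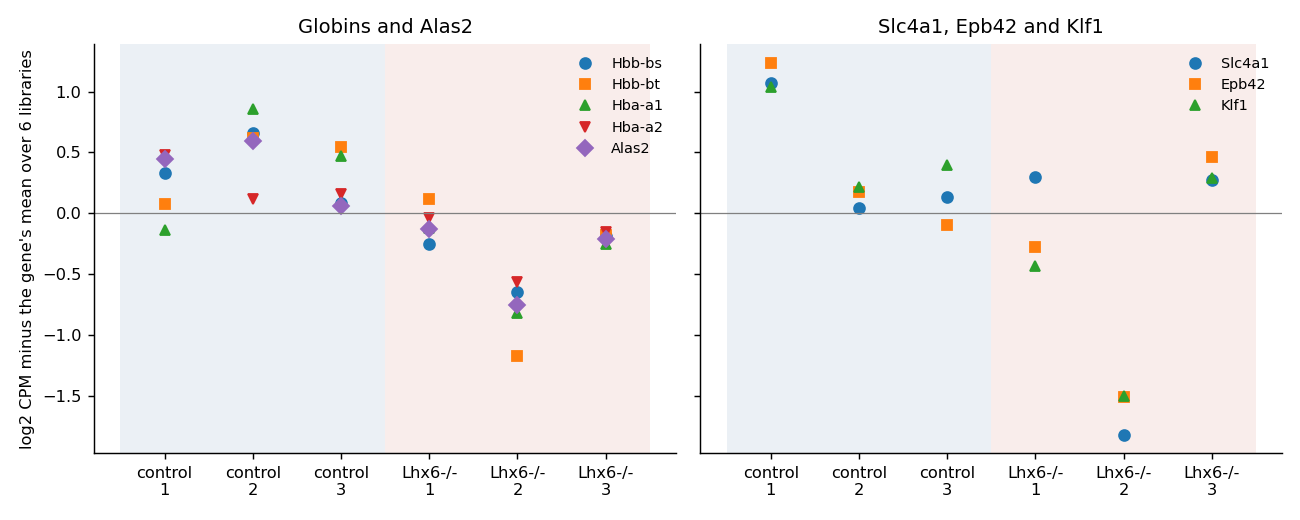
log2 CPM of each member minus its own mean over the 6 libraries (0 line), for the globins and Alas2 (left) and for Slc4a1, Epb42 and Klf1 (right), with control libraries on blue and Lhx6-/- libraries on red ground. On the right, control 1 is highest and Lhx6-/- 2 lowest for each gene, and the other 4 libraries of the 2 genotypes overlap for Epb42 and Klf1 but not for Slc4a1, where Lhx6-/- is the higher.

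Set against globin in the same library, the second set had no even difference between genotypes. Slc4a1 stood at 42.4, 17.5 and 23.2 CPM per 1000 CPM of adult globin in controls and 33.2, 11.1 and 34.1 in Lhx6-/- libraries. Klf1 stood at 1.88, 0.896 and 1.26 in controls and 0.907, 0.632 and 1.57 in Lhx6-/- libraries, and Epb42 at 2.06, 0.83 and 0.855 in controls and 0.964, 0.598 and 1.68 in Lhx6-/- libraries. All 3 ratios overlapped between groups and were lowest in Lhx6-/- 2. Slc4a1 thus varied 4.35-fold among Lhx6-/- libraries as CPM, where Hbb-bs varied 1.38-fold.

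The wider red cell programme was read from 79 other genes in 7 lists, of which 74 had a row and 73 were tested. These lists, and the marker lists below, were also chosen with earlier results of these data known. Of these, 63 were lower and 10 higher in Lhx6-/- libraries, with a median log2 fold change of -0.21, while 50.3% of all tested genes were lower. Of the 73, 4 met the fold and p rule, which 1.71% of all tested genes met in the lower direction, and all 4 were lower, among them the theta-like globin Hbq1b and the erythroid transcription factors Gata1 and Nfe2. None reached an adjusted p under 0.05 in edgeR's quasi-likelihood test, and at an unadjusted p under 0.05 there were 14 lower and 1 higher, beside 5.07% and 4.74% of all tested genes. Without overlap between groups, 15 were lower and 1 higher, beside 7.68% and 7.86% of all tested genes. Without control 1, 55 of 74 were lower (median -0.11), and without Lhx6-/- 2, 58 of 74 (median -0.09).

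Gata1, which binds GATA sites beside Klf1 at many red cell genes, measured 4.71, 3.29 and 2.35 CPM in controls and 1.44, 0.94 and 2.27 CPM in Lhx6-/- libraries (log2 fold change -1.15, SE 0.35, unadjusted p = 0.00647, adjusted p = 0.264). Nfe2 measured 8.74, 7.08 and 5.81 CPM in controls and 4.96, 3.38 and 5.20 CPM in Lhx6-/- libraries (-0.68, SE 0.21, unadjusted p = 0.00661, adjusted p = 0.264). Both groups of values were apart, by a small margin for Gata1. Of the 14 regulators, 12 were lower, and the 2 most abundant, Ldb1 and Bcl11a, which many tissues express, had log2 fold changes of 0.06 and -0.08. The other globins were near the detection limit. Hbq1b measured 2.02, 1.06 and 1.27 CPM in controls and 0.491, 0.658 and 0.739 CPM in Lhx6-/- libraries (-1.20, SE 0.38, unadjusted p = 0.00809, adjusted p = 0.285). Hbq1a had at most 20 counts in a library and was not tested, and the 5 other listed globins, embryonic Hbb-y, Hbb-bh1 and Hba-x among them, had no row. The deposited counts are labelled as filtered, and every gene kept had at least 10 counts in some library. A missing row therefore gives no level.

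Heme synthesis and transport genes were lower in 12 of 12 cases, by small amounts (median log2 fold change -0.20), and none met the fold and p rule. The 2 most abundant were Fech, which inserts iron into the ring (-0.10, SE 0.08), and Slc25a37, the mitochondrial iron carrier mitoferrin-1 (-0.27, SE 0.24). Membrane and skeleton genes were lower in 16 of 18 cases (median -0.28), again with none past the rule. Their 2 most abundant members, Aqp1 and Cd47, which other cells also make, stood at -0.07 and 0.06. Of 8 red cell enzymes 7 were lower, led in level by Prdx2 (-0.21, SE 0.07) and Car2 (-0.35, SE 0.11), and of 12 genes of reticulocyte maturation 10 were lower, with Rnf10 at -0.05 and Bnip3l at 0.03 the most abundant. Iron uptake and storage genes, which all cells use, split 5 lower and 3 higher (median -0.04), and the ferritin chains Ftl1 and Fth1 stood at -0.20 and -0.21.

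**Figure D4:**
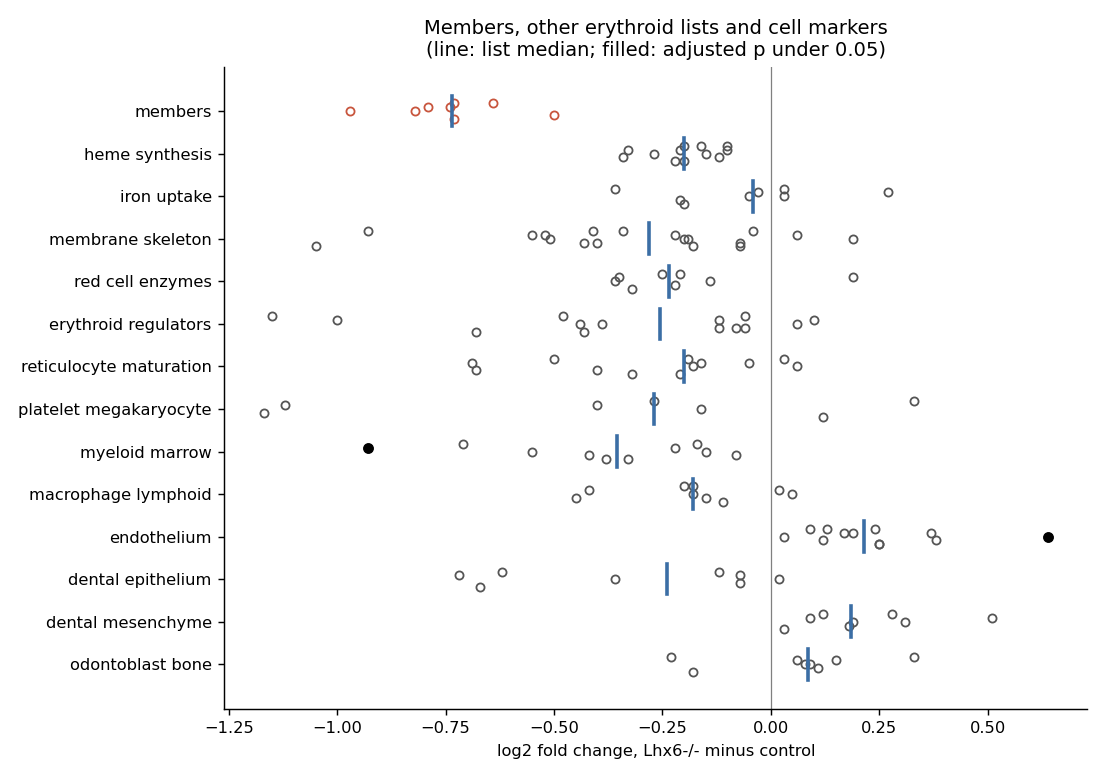
log2 fold change (Lhx6-/- minus control) of the 8 members (red circles), of 6 other erythroid lists and of 7 lists of cell markers (grey circles, 1 per tested gene), with each list's median as a blue line and genes at an adjusted p under 0.05 filled. The members' median is -0.74, the erythroid lists lie between -0.28 and -0.04, and endothelial markers are all above 0. The globin list with 1 tested gene and the sex-linked genes are left out.

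Genes of similar shape were sought for 2 profiles, the mean of the 4 non-globin members (Alas2 included) and the summed adult globins. Among 15113 other tested genes with a mean of at least 1 CPM, the 10 nearest to the mean of Alas2, Slc4a1, Epb42 and Klf1 lay at 0.13 to 0.26, where the median candidate lay at 0.714. They included Tspo2, Trim10, Tspan33, Ermap, Dmtn, Rhd, Apol8, Gata1 and 9630028I04Rik. Tspo2, Trim10, Apol8 and 9630028I04Rik were in no list, and Ermap, Dmtn and Rhd encode red cell membrane or skeleton proteins. Tspo2, the nearest, measured 5.40, 4.08 and 3.31 CPM in controls and 2.90, 1.06 and 3.00 CPM in Lhx6-/- libraries (log2 fold change -0.88, SE 0.36, adjusted p = 0.461).

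The 10 genes nearest to the summed adult globins, at 0.1 to 0.151 with the median candidate at 0.418, included Tcf15, Gm4462, AI662270, Cd22, Adgrf4, Cyp2t4, Amtn, Isoc2b and Gm5914. None of them was in an erythroid list. Amtn, which encodes an enamel matrix protein made by ameloblasts, measured 283, 280 and 277 CPM in controls and 210, 168 and 200 CPM in Lhx6-/- libraries (log2 fold change -0.54, SE 0.09, adjusted p = 0.021). Adgrf4 measured 15.6, 18.6 and 15.1 CPM in controls and 9.42, 7.77 and 9.44 CPM in Lhx6-/- libraries (-0.89, SE 0.13, adjusted p = 0.011). These 2 had an adjusted p under 0.05, and the other 8 had adjusted p-values of 0.22 to 0.689. Both profiles had a lower mean in Lhx6-/- libraries, so choosing genes by likeness to them favoured lower genes. The direction of the genes so chosen is therefore no separate result. A shared shape over 6 libraries is a description and shows no shared source.

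Markers of the other cells of blood and vessels did not all lean the way of the members. The 12 endothelial markers were higher in 12 of 12 cases, with sums of 547 to 570 CPM in controls and 617 to 709 CPM in Lhx6-/- libraries. Cldn5, a tight junction gene of vessels, rose (log2 fold change 0.64, adjusted p = 0.014), and the most abundant, Cdh5 and Eng, stood at 0.37 (adjusted p = 0.085) and 0.17 (adjusted p = 0.585). In the Lhx6-/- libraries the summed red cell members were thus lower and the summed vessel markers higher.

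The 10 markers of marrow myeloid cells were lower in 10 of 10 cases, with sums of 277, 263 and 349 CPM in controls and 262, 142 and 195 CPM in Lhx6-/- libraries. Lhx6-/- 2 was lowest here too. S100a9, a calcium-binding protein of neutrophils, fell from 67.4, 72.0 and 80.8 CPM to 47.2, 31.2 and 37.1 CPM (log2 fold change -0.93, adjusted p = 0.0313), and Ngp, the most abundant, stood at -0.55 (adjusted p = 0.713). Platelet and megakaryocyte markers were lower in 5 of 7 tested cases, with sums of 17.3 to 19 CPM in controls and 11.5 to 18 CPM in Lhx6-/- libraries, and their most abundant genes Pf4 and Itga2b stood at -0.27 and -0.16. Macrophage and lymphoid markers were lower in 7 of 9 cases and summed to 348 to 366 CPM in controls and 319 to 361 CPM in Lhx6-/- libraries, with Csf1r at 0.02 and Cd68 at -0.15.

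Markers of the dental cells leaned with genotype too. Dental epithelium markers were lower in 7 of 8 cases (median -0.24, with Amelx at -0.12 and Ambn at -0.07), dental mesenchyme markers were higher in 8 of 8 (median 0.18, with Col1a1 at 0.09 and Col3a1 at 0.31), and odontoblast and bone markers were higher in 6 of 8 (median 0.09, with Dspp at 0.33 and Bglap at -0.18). None of these 24 genes reached an adjusted p under 0.05. The mitochondrial share of counts was 3% to 4.25% in controls and 3.3% to 3.59% in Lhx6-/- libraries. The part of the dissected cell mix and of blood left in the sections in the members' difference was not tested.

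**Figure D5:**
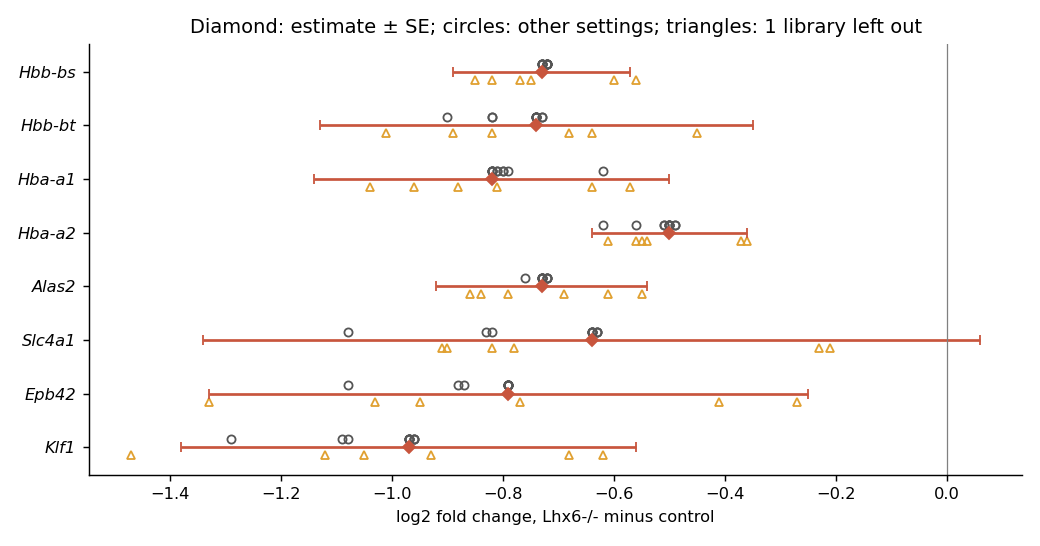
log2 fold change (Lhx6-/- minus control) of each member as reported (diamond, ± SE), under other scalings, tools and filters or with copies summed (circles) and with 1 library left out (triangles). Every point lies below 0, and the spread is narrow for Hbb-bs, Hba-a2 and Alas2 and wide for Slc4a1, Epb42 and Klf1.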

How the data were processed

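The authors aligned single-end reads to mm10 (GRCm38) with STAR 2.6.1d in Partek and deposited estimated counts of 23594 genes in 6 libraries, filtered but without normalization. The counter, the annotation and the filter's rule are not given in the sources used here. The deposited table of the authors' own comparison (ratios, fold changes, p-values and false discovery rates) supplied the gene names of the counts, in its row order. Its total counts served to check that order, and its gene positions were compared with GENCODE. No fold change or p-value of it was read. Library totals were 60132323 to 76157433, and Klf1 and Epb42 rested on 70 to 393 counts, so counting error is larger for them than for globins.

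Estimated counts were rounded, scaled by TMM (factors 0.978 to 1.04), filtered with filterByExpr (20114 genes kept) and tested with edgeR 4.0.16 (R 4.3.3; quasi-likelihood, robust, two-sided, Benjamini-Hochberg over all tested genes), after a test on simulated data. The SE is the size of the log2 fold change over the square root of F. Called genes had at least 1.5-fold and unadjusted p under 0.05, or adjusted p under 0.05. Alternatives used DESeq2 1.42.0, limma 3.58.1, other scalings and filters, a replicate block, summed copies and each library left out. Figures used matplotlib 3.10.9. Libraries were grouped by genotype in the labels, by the titles' replicate numbers, which differ from the table's for Lhx6-/- (2, 3 and 4 there).

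The members and the gene lists were chosen with earlier results of these data known. Named genes are the members, Lhx6, genes of the other erythroid lists past either call or among the 2 most abundant of their list, markers called or among the 2 most abundant, and the 10 genes nearest in shape, and some genes that this rule names are not reported here.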

Additional observations from a re-analysis of the deposited data

How the results depend on the processing

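All 8 members were lower in Lhx6-/- libraries under each of the 17 other fits, and no value reversed. Across them (16 for each globin, the summed copies left out) the log2 fold change ran from -0.85 to -0.56 for Hbb-bs, -0.61 to -0.36 for Hba-a2, -0.86 to -0.55 for Alas2, -1.04 to -0.57 for Hba-a1, -1.01 to -0.45 for Hbb-bt, -1.08 to -0.21 for Slc4a1, -1.33 to -0.27 for Epb42 and -1.47 to -0.62 for Klf1. The fold and p rule was met in 15 of 16 alternatives by Hbb-bs and 16 of 17 by Alas2. DESeq2 gave 315 genes an adjusted p under 0.05 against 81 in edgeR, 3 of them members: Hbb-bs at -0.73, Hba-a2 at -0.50 and Alas2 at -0.73. With the replicate block 134 genes, 1 member (Hba-a2, -0.51, adjusted p = 0.0316) and 1 other erythroid gene reached it. In that fit 7 other erythroid genes met the fold and p rule against 4 in the main fit. Among all genes tested, 652 met it in either direction against 660. The paper speaks of 3 pairs of samples, but which libraries form a pair is not given, so the block rests on numbers alone. Same-numbered libraries correlated at 0.0256, -0.0288 and -0.0314 in their deviations from the group means. They did not each correlate best with their own number. These are the titles' numbers. The table numbers the Lhx6-/- libraries 2, 3 and 4, and the 2 pairs that share a table number correlated at -0.0616 and -0.00645. Leaving out 1 library gave 12 (without control 3) to 127 (without control 1) genes at an adjusted p under 0.05. Past the rule were 1 (without Lhx6-/- 2) to 4 members and 2 (without control 1) to 7 (without Lhx6-/- 3) other erythroid genes. Among all genes tested, 607 (without Lhx6-/- 1) to 968 (without control 1) were past it in either direction. Their number was 620 without Lhx6-/- 2 and 752 without Lhx6-/- 3. The cause was not tested. Pools whose animals and litters are not given and 3 libraries a group limit precision, most for Slc4a1, Epb42 and Klf1.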
